A study of Homo sapiens with 2 samples.

Results

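Luminal identity of the breast epithelium rests on the steroid receptors ESR1 (the estrogen receptor) and PGR (the progesterone receptor) and on the transcription factors GATA3, FOXA1, SPDEF, GRHL2 and ELF3, with TFF1 as a secreted product of estrogen action. These 8 genes were taken by their names from the 23033 genes that had a value, and all 8 had one. The names were matched through Entrez gene IDs, and the rule sets no threshold on a measured value. RNAseq was performed in 2 libraries with 1 library per condition, control cells (genotype WT) and FZR1 ko cells. Both were labelled T-47D and both had received cisplatin, a platinum drug that damages DNA, at 2 µg/mL. FZR1 is a co-activator of the APC/C ubiquitin ligase, and its knockout line was made with CRISPR/Cas9 followed by cloning from single cells. T-47D is an established luminal breast cancer line known for its estrogen and progesterone receptors. The time on the drug is not given for these libraries, and cells without cisplatin were not analysed here. With 1 library per condition no difference has a replicate check, so the comparisons describe these libraries and carry no p-value. The targeted gene FZR1 had 12.3 FPKM (defined below) in control against 10.1 FPKM in FZR1 ko, and since a small insertion or deletion can leave the mRNA in place this does not check the labels.

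In luminal cells the estrogen receptor binds DNA at sites that FOXA1, a pioneer factor, opens in closed chromatin and that GATA3 helps to hold accessible. ESR1, FOXA1 and GATA3 are known to depend on each other there, and PGR and TFF1 are classic genes induced by the receptor. SPDEF and ELF3 are ETS factors of epithelia, and GRHL2 is a grainyhead factor that keeps the genes of epithelial junctions on.

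The starts of the genes are shown first, because the transcript levels below differ widely between them. Windows of 250 bases before the start site of the canonical GENCODE 44 transcript were taken from a RefSeq promoter table (GRCh38.p14, the build called hg38) for 6 of the 8 genes, all but TFF1 and GRHL2. The 4 windows below belong to FOXA1, a gene with a measured level, and to GATA3, ESR1 and PGR, 3 genes near 0. They are read 5′ to 3′ on the strand of the gene, and capitals mark the CpG sites, the dinucleotides that DNA methylation acts on. FOXA1 lies on the minus strand (chr14:37595250-37595499) and its window holds an exon of a noncoding FOXA1 transcript. GATA3 lies on the plus strand (chr10:8054438-8054687) in a stretch that longer GATA3 transcripts have as an intron. ESR1 lies on the plus strand (chr6:151807510-151807678), and the 169 bases shown are the stretch of its window without an exon of a protein-coding ESR1 transcript. PGR lies on the minus strand (chr11:101129814-101130063) and its window overlaps an exon of the antisense gene PGR-AS1.
FOXA1: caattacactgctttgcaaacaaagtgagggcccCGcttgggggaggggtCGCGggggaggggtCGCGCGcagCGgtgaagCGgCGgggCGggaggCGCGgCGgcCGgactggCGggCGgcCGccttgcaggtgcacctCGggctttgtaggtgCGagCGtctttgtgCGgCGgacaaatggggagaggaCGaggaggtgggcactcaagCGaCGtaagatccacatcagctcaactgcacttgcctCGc
GATA3: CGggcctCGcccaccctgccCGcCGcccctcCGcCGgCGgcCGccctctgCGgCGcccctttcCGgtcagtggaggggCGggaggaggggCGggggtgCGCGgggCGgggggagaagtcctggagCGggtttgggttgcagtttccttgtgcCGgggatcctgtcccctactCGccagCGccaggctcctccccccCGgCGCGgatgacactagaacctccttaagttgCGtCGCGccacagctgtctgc
ESR1: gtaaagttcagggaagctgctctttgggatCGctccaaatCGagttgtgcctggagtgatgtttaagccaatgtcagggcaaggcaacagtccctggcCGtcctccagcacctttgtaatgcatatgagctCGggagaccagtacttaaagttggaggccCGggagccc
PGR: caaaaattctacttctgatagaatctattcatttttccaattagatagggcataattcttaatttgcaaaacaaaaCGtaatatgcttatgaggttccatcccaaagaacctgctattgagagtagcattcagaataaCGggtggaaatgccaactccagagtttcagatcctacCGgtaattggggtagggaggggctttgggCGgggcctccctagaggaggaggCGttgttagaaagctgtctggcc

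The windows of FOXA1 and GATA3 each held 26 CpG sites, more than 80.4% of the 34941 promoter windows of the table had, while their transcripts stood far apart in level. The full window of ESR1 held 11 CpG sites, which was the median of all windows, and that of PGR held 5. SPDEF had 6 and ELF3 had 4, although ELF3 had the highest level of all 8 genes. GC content ran from 43.6% in PGR to 73.6% in GATA3, against a median of 58.0%. Among 6 motifs searched on both strands, the estrogen half-site GGTCA was found in the GATA3 window, 186 bases before the start site, and 32.6% of all windows hold it. That motif is part of the full estrogen response element, 2 inverted half-sites with a spacer, whose letters were in 0.04% of all windows and in none of the 6. The letters of the FOXA motif TGTTTAC (2.98% of windows), the GATA motif AGATAA (9.19%), the ETS motif CCGGAAG (8.48%) and the grainyhead motif AACCGGTT (0.114%) were not in these 6 windows either. Methylation and factor binding were not analysed here, so the windows describe the sequence only.

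Of the 8 luminal identity genes, 3 had a clear transcript level in both libraries and 5 lay under 1 FPKM in both. FPKM scales fragments to the transcript's length and to all mapped fragments of the library, so levels can be compared between genes. It keeps no number of reads, and the depth behind each value is unknown. ELF3 stood highest, followed by TFF1 and FOXA1, and this order was the same in control and FZR1 ko. GATA3, SPDEF, ESR1, PGR and GRHL2 made up the low end, led by GATA3 in control and by SPDEF in FZR1 ko. With 1 library per condition there is no spread against which neighbours in this order could be told apart. The receptors that define a luminal, hormone-responsive cell were therefore at or near 0 in libraries labelled T-47D, in control as in FZR1 ko. How this came about was not tested, and the genes are called luminal identity genes here by the rule that chose them and not by what the cells were.

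Among the receptors, ESR1 stood at 0.04 FPKM in control against 0.13 FPKM in FZR1 ko. In control 20.6% of the 23033 genes had a lower value than ESR1, and 29.4% did in FZR1 ko, so the receptor lay in the lowest part of the range in either library. The raw ratio of FZR1 ko to control was 3.25, and rounding of the deposited values to 2 decimals alone lets it lie between 2.78 and 3.86. PGR had 0.01 FPKM in control, 1 step of that rounding, and 0 in FZR1 ko. In bulk RNA, fewer cells with a transcript and less of it per cell cannot be told apart.

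The other members of the steroid receptor family showed which receptors these libraries did hold. ESRRA, the estrogen-related receptor alpha, which binds no estrogen and drives genes of mitochondrial metabolism, had 41.2 FPKM in control against 40.2 FPKM in FZR1 ko (log2 ratio -0.04). NR3C1, which binds glucocorticoids, had 5.28 FPKM in control against 10.45 FPKM in FZR1 ko (log2 ratio 0.87), which did not reach 2-fold. ESR2, the estrogen receptor beta, had 0.47 and 0.58 FPKM. NR3C2, the mineralocorticoid receptor, was listed at 0 in control and had 0.03 FPKM in FZR1 ko, and ESRRB and ESRRG were listed at 0 in both. Thus ESRRA and NR3C1 were the 2 of 9 receptors of this family that reached 1 FPKM.

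GATA3 had 0.31 FPKM in control against 0.15 FPKM in FZR1 ko, a raw ratio of 0.484 that rounding lets lie between 0.460 and 0.508. Another GATA factor was the abundant one. GATA2, best known from blood and endothelial cells and also present in some epithelia, had 39.7 FPKM in control against 30.0 FPKM in FZR1 ko (log2 ratio -0.39). Its level was 128 times that of GATA3 in control. GATA6, a factor of endoderm and several epithelia, had 6.31 and 3.56 FPKM (log2 ratio -0.68). TRPS1, an atypical GATA repressor widely used as a marker of breast tumours, had 1.01 and 1.93 FPKM (log2 ratio 0.54). GATA5 had 0.32 and 0.85 FPKM, GATA1 had 0.08 FPKM in both libraries, and GATA4 was listed at 0 in both.

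FOXA1 had 5.07 FPKM in control against 4.65 FPKM in FZR1 ko, close to the middle of the 17781 protein-coding genes, of which 54.2% and 51.4% had lower values. The log2 ratio on the FPKM + 1 scale was -0.10. FOXA3 was at 0.35 FPKM in control and listed at 0 in FZR1 ko, and FOXA2 had no value in the table. The pioneer factor of the estrogen receptor was thus measured in both libraries beside a receptor near 0.

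TFF1, the trefoil peptide that is a standard readout of estrogen action, had 9.80 FPKM in control against 7.52 FPKM in FZR1 ko (log2 ratio -0.34). In control 71.3% of all genes had a lower value and in FZR1 ko 66.8%. Its canonical transcript has 492 bases, the shortest of the 8, so its value can rest on few reads. TFF2 had 0.26 and 0.25 FPKM, and TFF3 had no value. TFF1 therefore had a level well above that of its receptor, ESR1, in both libraries.

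ELF3 was the most abundant of the 8, with 81.8 FPKM in control against 57.5 FPKM in FZR1 ko. It exceeded 95.1% of all genes in control and 93.3% in FZR1 ko, and its level in control was 16.1 times that of FOXA1. The log2 ratio of -0.50 was the largest among the 3 genes above 1 FPKM and did not reach 2-fold. ELF3 overlaps the antisense gene ELF3-AS1, and where the counting did not use strand their reads cannot be told apart.

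The other ETS factors of epithelia were far lower. SPDEF, the ETS factor of secretory luminal cells, had 0.19 FPKM in control against 0.31 FPKM in FZR1 ko. EHF had 2.18 and 4.46 FPKM (log2 ratio 0.78), and ELF5, the factor of the milk-producing lineage, had 0.08 and 0.11 FPKM. ELF3 and EHF were on opposite sides of 0 in the comparison of the libraries, and the level of ELF3 was 37.5 times that of EHF in control and 12.9 times in FZR1 ko.

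GRHL2 was listed at 0 in control and had 0.01 FPKM in FZR1 ko. GRHL1, the grainyhead factor of the epidermis, had 2.14 and 1.68 FPKM (log2 ratio -0.23), and GRHL3 had 0.14 and 0.13 FPKM. The more distant CP2 factors, which are widely expressed, were higher. UBP1 had 19.8 and 31.8 FPKM (log2 ratio 0.65), and TFCP2 had 9.42 and 20.6 FPKM (log2 ratio 1.05). TFCP2L1 had 0.08 and 0.28 FPKM. TFCP2 was the 1 gene past 2-fold among the 24 relatives of the 8 genes, of which 9 reached 1 FPKM in at least 1 library. Over all genes that reached it, 13.5% were past 2-fold.

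**Figure D1:**
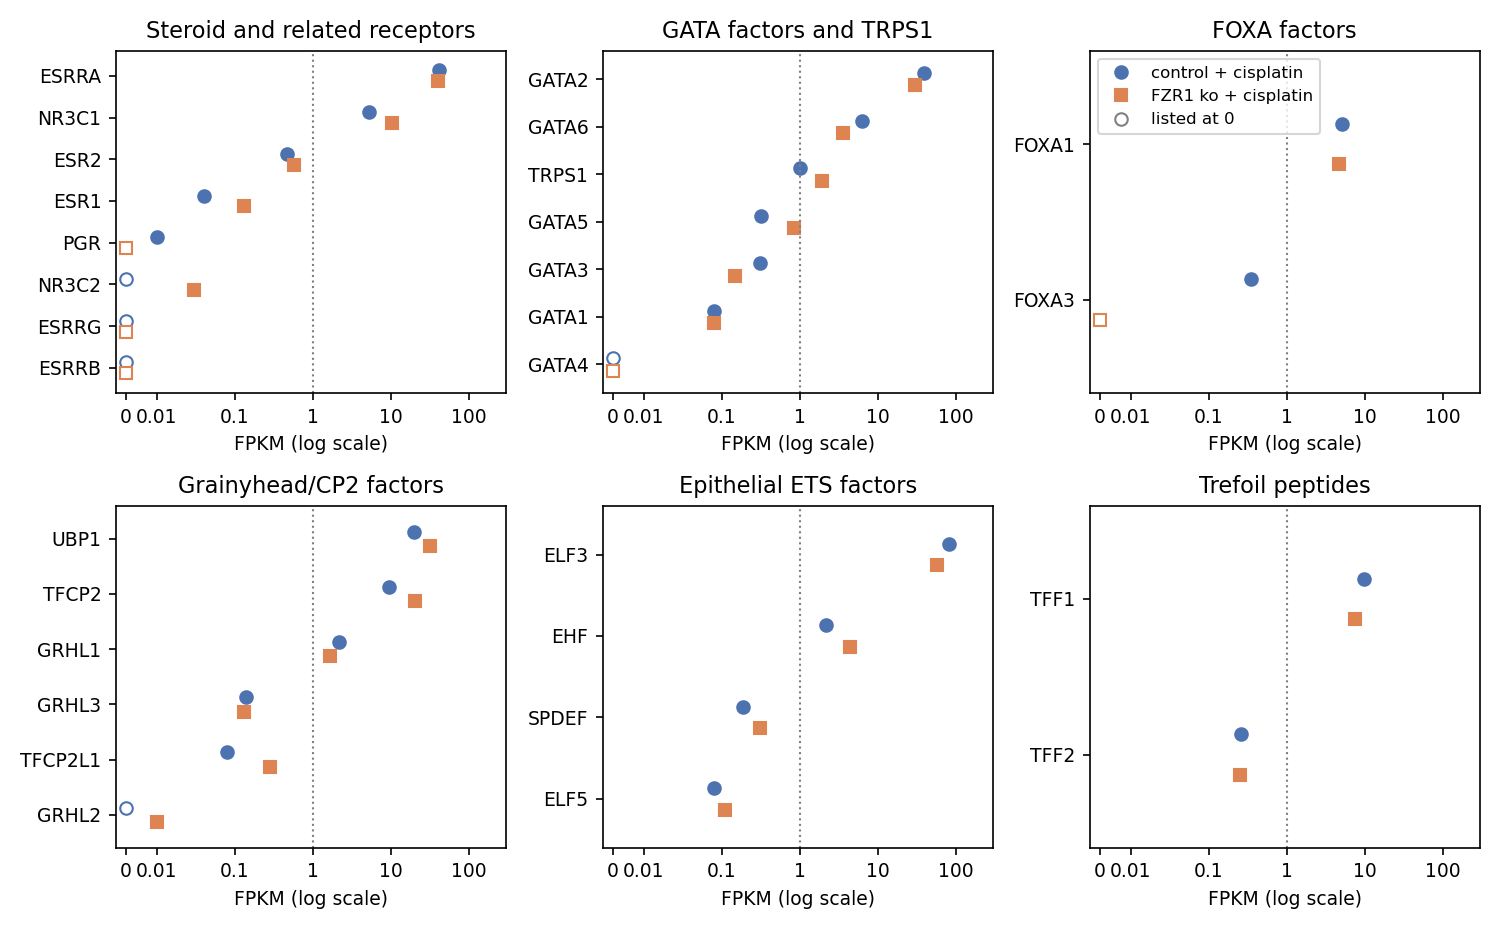
FPKM (log axis, 0 at the left edge) of members of the 6 gene families of the luminal identity genes, in control (circles) and FZR1 ko (squares), with a dotted line at 1 FPKM. ESRRA, GATA2 and ELF3 lead their families, while ESR1, PGR, GATA3, GRHL2 and SPDEF lie below 1 FPKM in both libraries.

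None of the 8 luminal identity genes differed at least 2-fold between the libraries on the log2(FPKM + 1) scale. In this comparison 13554 genes had at least 1 FPKM in at least 1 library and were kept, and 1830 of them (13.5%) differed at least 2-fold. FOXA1, TFF1 and ELF3 were the 3 luminal genes kept, with log2 ratios of -0.10, -0.34 and -0.50, all lower in FZR1 ko. The median over all genes kept was -0.0048. For the 5 genes under 1 FPKM the pseudocount of 1 FPKM holds the ratio near 0, with values from -0.19 for GATA3 to 0.14 for SPDEF. Without a pseudocount and a filter, a setting added after the values were seen, ESR1 (3.25 times) and GATA3 (0.484 times) were past 2-fold in opposite directions.

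**Figure D2:**
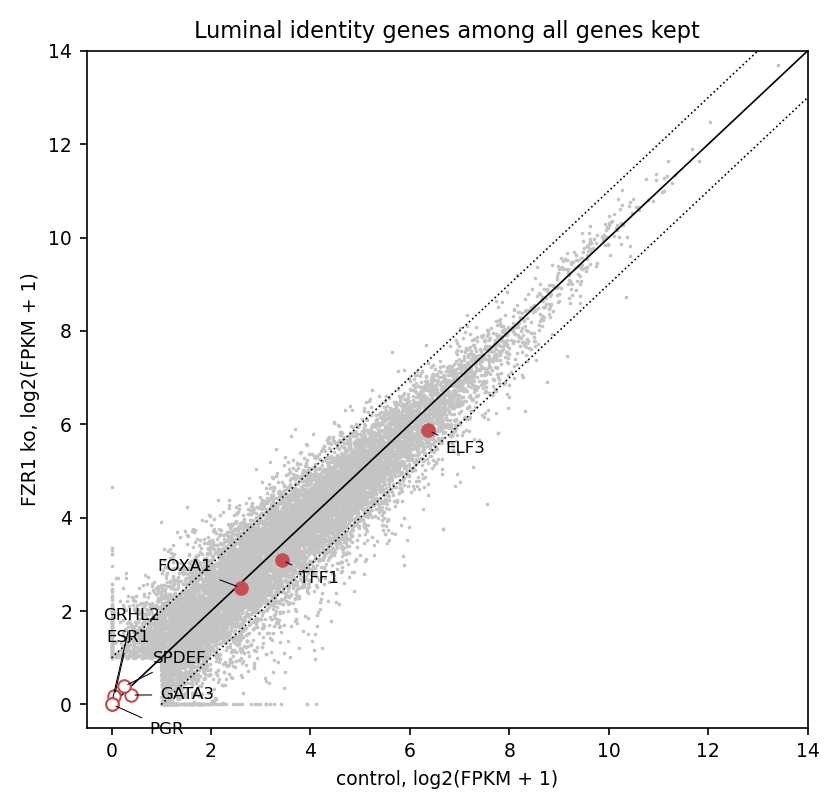
log2(FPKM + 1) in FZR1 ko against control for the 13554 genes kept (grey), with the 8 luminal identity genes in red, filled where kept and open where under 1 FPKM in both libraries, a line of equality and dotted lines at 2-fold. ELF3, TFF1 and FOXA1 lie just under the line of equality and inside the dotted lines.

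The difference between the libraries moved with transcript length. Over 11452 protein-coding genes kept with a known length, the median log2 ratio was -0.05 in the shortest of 10 length groups (276 to 1225 bases) and 0.31 in the longest (7326 bases and over). The share of genes at least 2-fold higher in FZR1 ko was 3.84% in the shortest group and 12.0% in the longest. With the median of each length group subtracted, a setting added after the values were seen, ELF3 had a log2 ratio of -0.49, TFF1 of -0.29 and FOXA1 of -0.10.

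Of the genes kept in the lists that follow, 8 of 82 reached 1 FPKM in 1 library only, and such genes were kept through the library in which they were higher. Genes known to be induced by estrogen in breast cancer lines were compared next. Of 25 listed genes, among them TFF1 and PGR, 19 were kept, and 2 were at least 2-fold higher and 0 at least 2-fold lower in FZR1 ko, with a median log2 ratio of -0.06. Over all genes kept 6.78% were at least 2-fold higher and 6.72% lower by that much. CA12, a carbonic anhydrase of luminal tumours, had 5.69 FPKM in control against 15.8 FPKM in FZR1 ko (log2 ratio 1.33). ADCY9, an adenylate cyclase with a long transcript, had 2.81 and 6.82 FPKM (log2 ratio 1.04, and 0.73 with the length trend removed). The most abundant were genes with wide roles. XBP1, a factor of the unfolded protein response, had 93.4 and 72.6 FPKM, and CCND1, cyclin D1, had 71.7 and 68.5 FPKM. FKBP4, a chaperone of steroid receptors, had 78.0 and 58.0 FPKM, and IGFBP4 had 60.7 and 47.4 FPKM. PGR, AGR3, RET, IL20 and CXCL12 stayed under 0.1 FPKM in both libraries. GREB1, a target closely tied to the receptor and named after its values were seen, had 0.87 and 0.54 FPKM.

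The machinery that steroid receptors work with was read from a list of 18 genes. All 18 listed coactivators, corepressors and chaperones were kept, NCOA1 and NCOA2 through FZR1 ko alone, with 3 at least 2-fold higher and 0 at least 2-fold lower in FZR1 ko, and the median log2 ratio was 0.35. NCOR1, a corepressor that holds unliganded receptors silent, had 3.71 FPKM in control against 9.01 FPKM in FZR1 ko (log2 ratio 1.09). FKBP5, a chaperone partner that glucocorticoids are known to induce, had 7.58 and 16.7 FPKM (log2 ratio 1.05). NCOA1 and NCOA2, coactivators of steroid receptors named after their values were seen, had 0.25 and 0.43 FPKM in control against 1.04 and 1.82 FPKM in FZR1 ko (log2 ratios 0.71 and 0.98). The 18 cofactors have long transcripts, with a median of 4255.5 bases, and with the length trend removed their median log2 ratio was 0.15. FKBP5 then had 1.05 and NCOR1 0.78, and 2 of the 18 were past 2-fold. The chaperones were the most abundant. HSP90AB1 had 1015 and 916 FPKM, HSP90AA1 653 and 536 FPKM and PTGES3 224 and 287 FPKM, and reads of these genes can be shared with processed copies. DDX5, an RNA helicase and coactivator, had 223 and 166 FPKM.

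Other transcription factors of luminal cells were compared in the same way. Of 16 listed, 11 were kept, with 1 at least 2-fold higher and 3 at least 2-fold lower in FZR1 ko and a median log2 ratio of -0.36. SOX9, a factor of luminal progenitors, had 5.25 FPKM in control against 0.92 FPKM in FZR1 ko (log2 ratio -1.70). IRX5 had 14.6 and 5.37 FPKM (-1.29), and TBX3, a factor of hormone-sensing mammary cells, had 27.4 and 12.5 FPKM (-1.07). KLF5, an epithelial factor, was abundant in both at 77.4 and 72.9 FPKM, and TFAP2A had 17.0 and 23.3 FPKM. TFAP2B and OVOL2 were listed at 0 in both libraries.

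The labelled cell type was compared with wider markers of luminal breast cells. Of 21 listed, 19 had a value and 12 were kept, with 2 at least 2-fold higher and 1 at least 2-fold lower in FZR1 ko and a median log2 ratio of 0.36. The summed level of the list was 2047 FPKM in control against 2502 FPKM in FZR1 ko, most of it from the simple keratins. KRT8 had 829 and 998 FPKM, KRT18 had 552 and 740 FPKM and KRT7 had 532 and 657 FPKM. MUC1, a mucin of the luminal surface, had 99.4 and 37.5 FPKM (log2 ratio -1.38). MLPH, a vesicle transport gene high in luminal tumours, had 3.09 and 12.2 FPKM (1.69), and the adhesion molecule EPCAM had 3.90 and 11.5 FPKM (1.35). ERBB2, TRPS1 and AGR2 of this list, named after their values were seen, reached 1 FPKM in both libraries. ANKRD30A and SCGB1D2 were listed at 0 in both libraries, ERBB4, PRLR and DNALI1 stayed under 0.1 FPKM, and SCGB2A2 and PIP had no value. KRT19, a keratin of luminal cells named after its values were seen, had 0.20 and 0.16 FPKM.

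Epithelial junction genes, many of them known targets of grainyhead factors, were split. Of 20 listed, 12 were kept, with 1 at least 2-fold higher (EPCAM) and 2 at least 2-fold lower in FZR1 ko and a median log2 ratio of 0.32. LSR, a protein of tricellular junctions, had 16.7 and 2.94 FPKM (log2 ratio -2.17), and MAL2, an apical transport protein, had 3.27 and 0.08 FPKM (-1.98). CLDN4 had 43.6 and 21.4 FPKM, just short of 2-fold on the log2(FPKM + 1) scale. ESRP2 had 10.3 and 15.7 FPKM and CLDN7 had 6.92 and 9.98 FPKM. ESRP1 and RAB25 were listed at 0 in both libraries, and SPINT1 and CDH3 stayed under 0.1 FPKM. CDH1, the E-cadherin of epithelial junctions, named after its values were seen, had 0.69 and 0.62 FPKM.

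Markers of basal, myoepithelial and mesenchymal cells differed widely in level. Of 22 listed, 14 were kept, with 3 at least 2-fold higher and 1 at least 2-fold lower in FZR1 ko and a median log2 ratio of 0.24. That median was 0.11 with the length trend removed and -0.01 without the filter on low values. The summed level of these markers was 570 FPKM in control against 518 FPKM in FZR1 ko. VIM, the mesenchymal filament vimentin, had 315 and 295 FPKM, KRT17 had 103 and 55.8 FPKM and FOXC1, a factor of basal tumours, had 24.8 and 29.2 FPKM. SNAI1, a repressor of epithelial genes, had 58.2 and 6.89 FPKM (log2 ratio -2.91). CDH2, N-cadherin, had 2.97 and 15.3 FPKM (2.04), EGFR had 7.73 and 22.2 FPKM (1.41) and the kinase AXL had 16.0 and 37.8 FPKM (1.19). KRT6A, TP63, SPARC and THY1 stayed under 0.1 FPKM in both. KRT5 and KRT14, keratins of basal cells, and ACTA2 and MYLK, contractile genes of myoepithelium, all named after their values were seen, stayed under 1 FPKM in both. Their part in the levels of the luminal identity genes was not tested.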

How the data were processed

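For the authors, total RNA was sequenced by BGI on a BGISEQ-500, 1 library each of control and FZR1 ko cells. Per the methods, reads were aligned to the transcriptome with Bowtie2 and quantified with RSEM on hg38. The submitters' processing notes also name Trimmomatic 0.36, HISAT2 2.1.0 and Bowtie2 2.2.5. The annotation version, strand setting and filters are not given in the sources used here. The authors deposited FPKM per Entrez gene ID, rounded to 2 decimals. Of 24663 rows 1630 had no value, and 22925 (99.5%) of the other 23033 matched a RefSeq symbol (GRCh38.p14). Their sum was 502589 FPKM in control against 500488 FPKM in FZR1 ko.

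From these values the log2 ratio of FPKM + 1, FZR1 ko over control, was taken over genes reaching 1 FPKM in either library, with a 2-fold rule and no test, since there are no replicates. The computation was checked on simulated data. Transcript lengths came from canonical GENCODE 44 transcripts. The genes and lists were chosen with earlier results of these data known, and some genes stand in several lists. Named were family members and, in each other list, the 4 most abundant genes, those past 2-fold and those under 0.1 FPKM in both libraries. Individual values of a few genes under this rule are left out, though list counts and medians include them. Lists of other epithelia and of blood, endothelial and neural cells are given in the closing section. Python 3.11.15, numpy 2.4.6 and pandas 2.3.3 were used.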

Additional observations from a re-analysis of the deposited data

How the results depend on the processing

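No paired analysis was possible because there is 1 library per condition, and so no replicate could be left out. The number of luminal identity genes past 2-fold stayed at 0 under the 7 alternatives chosen at the start and with the length trend removed, and was 2 without a pseudocount and filter. ELF3 ranged from -0.51 to -0.47, TFF1 from -0.38 to -0.24 and FOXA1 from -0.12 to -0.06 (log2). Of 56 log2 ratios of the 8 genes under alternatives, 2 changed sign, those of ESR1 (-0.06) and GRHL2 (-0.11) with the length trend removed, both genes near 0.

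By their construction, a 4-fold rule and a larger pseudocount pass fewer genes. All genes past the rule, 1830 at first, were 150 at 4-fold, 453 when 5 FPKM was added and 2818 when 0.1 FPKM was added. At 4-fold, 0 genes passed among estrogen-induced genes, receptor cofactors, other luminal factors, luminal breast markers, other epithelia and the family relatives, 1 among epithelial junction genes, 1 among blood, endothelial and neural genes, and 2 among basal and mesenchymal genes. With a pseudocount of 5 FPKM, 0 passed among estrogen-induced genes, other luminal factors, other epithelia and the relatives, and 1 each among cofactors, junction genes and blood, endothelial and neural genes. Receptor cofactors, 3 at first, were 6 with a pseudocount of 0.1 FPKM and 5 after rescaling, and junction genes, 3 at first, numbered 5 under both. Rescaling to a sum of 1000000 raises each value against the pseudocount. With at least 1 FPKM in both libraries 2 other luminal factors and 1 blood, endothelial or neural gene passed, and with the length trend removed 1 estrogen-induced gene did. The other 62 of 89 counts were within 1.5 times. Of 80 list medians under alternatives, 25 moved by over 0.1 (log2). Without a filter the median turned from 0.24 to -0.01 for basal and mesenchymal genes and from 0.32 to -0.01 for junction genes, and was 0 for estrogen-induced genes, other epithelia, the relatives and blood, endothelial and neural genes. The median of other epithelia went from 0.67 to 0.16 with at least 1 FPKM in both libraries. The median of blood, endothelial and neural genes, negative at first, was 2.23 with MITF alone left by that filter. The depth is unknown, so the counting error of the 5 genes under 1 FPKM could not be given.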

Other observations

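Defining genes of other tissues were read in the same libraries. Of 22 genes of liver, gut, lung, prostate, kidney, pancreas, bladder and squamous epithelium, 20 had a value and 4 were kept, with 2 at least 2-fold higher and 1 at least 2-fold lower in FZR1 ko and a median log2 ratio of 0.67. HNF4A, a factor of liver and gut, had 0.55 FPKM in control against 3.54 FPKM in FZR1 ko (log2 ratio 1.55), and PAX8, a factor of kidney and thyroid, had 1.66 and 1.97 FPKM. ALB, APOB, TTR, CDX2, PAX2, SOX2 and UPK2 were listed at 0 in both libraries, CDX1, VIL1 and NAPSA stayed under 0.1 FPKM, and KLK3 and PDX1 had no value.

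Of 14 genes of blood, endothelial, melanocytic and neuroendocrine cells, 13 had a value and 3 were kept, with 1 at least 2-fold higher and 1 at least 2-fold lower in FZR1 ko. MITF, a factor of melanocytes that other cells also transcribe, had 3.41 FPKM in control against 19.7 FPKM in FZR1 ko (log2 ratio 2.23). CDH5, the cadherin of endothelium, had 3.64 and 0.33 FPKM (-1.80). SYP had 0.92 and 0.57 FPKM. PTPRC, CD3E, VWF, SOX10, NEUROD1 and CHGA stayed under 0.1 FPKM in both libraries, and HBG1 had no value. GATA2, the abundant GATA factor here, thus stood beside defining blood genes at or near 0.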
